A study of Oryctolagus cuniculus with 12 samples.

Results

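The interleukin-6 (IL6) family of cytokines was examined in rabbit conjunctiva after trabeculectomy, a filtration operation for glaucoma. A list of 10 genes was taken by name: the ligands IL6, IL11, LIF, OSM, and CLCF1, the receptor chains IL6R, IL6ST, OSMR, and LIFR, and the feedback inhibitor SOCS3. Of these, 9 had a row among the 20566 genes of the deposited table, and IL11 was not analysed here. All 9 held enough counts to enter the test, which was run on 14835 genes.

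RNA was measured in 12 libraries, with 3 in each of 4 groups. The animals were female rabbits of the Japanese white strain, 12 to 14 weeks of age, with no engineered allele. In the groups TL3h, TL3d, and TL14d, conjunctiva with the filtration bleb was taken from the right eye 3 hours, 3 days, or 14 days after trabeculectomy with mitomycin C, an antiproliferative drug that is applied to limit scarring. These eyes also received an injection of the steroid betamethasone under the conjunctiva and an antibiotic ointment at the end of surgery, so surgery, mitomycin C, and steroid cannot be told apart. The control group was conjunctiva of the left eye, without an operation. The sources used here do not say which animal or time each control library came from, and the p-values measure the spread between these libraries.

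Cytokines of this family signal through the shared chain IL6ST, also called gp130. IL6 first binds its own receptor IL6R, in the membrane or in a soluble form, whereas LIF uses a pair of IL6ST and LIFR and OSM uses IL6ST with OSMR or LIFR. CLCF1 acts through the CNTF receptor together with LIFR and IL6ST. The paired chains activate JAK kinases and the transcription factor STAT3, and STAT3 switches on SOCS3, which binds the shared chain and damps the signal. IL6 and its relatives drive the acute phase response and take part in wound repair, and IL6 has been studied in aqueous humor around filtration surgery.

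The genes lie at several places in the rabbit genome (OryCun2.0). IL6 is at chr10:7771596-7776408 (plus strand), CLCF1 at chr1:194810857-194819469 (minus), and IL6R at chr13:38149107-38194929 (minus). IL6ST is at chr11:71905031-71961363 (minus). On the same chromosome, LIFR at chr11:59531358-59599331 (minus) and OSMR at chr11:59881012-59953194 (plus) are 281680 bases apart. LIF and OSM share the unplaced scaffold NW_003159349.1, at bases 3396631 to 3402421 and 3417036 to 3427343 on its minus strand, with 14614 bases between them. SOCS3 is on the scaffold NW_003159801.1 at bases 15839 to 17492 (minus). CLCF1 overlaps RAD9A, a DNA damage checkpoint gene, and whether the counting used the strand of the reads is not stated. RAD9A was called lower at 3 hours (log2 fold change −1.10, SE 0.24, q = 0.00449 in edgeR), when CLCF1 was higher. At 3 days (0.38, SE 0.24, q = 0.276) and 14 days (0.29, SE 0.24, q = 0.693) its change had the sign of that of CLCF1 and was not called.

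Levels of 1 gene across libraries are given as CPM, the count scaled to library size, after TMM normalization, which rescales each library so that most genes are level. The total count per library lay between 27111348 and 38591425, and a count of 0 allows up to 3 counts, or 0.0712 to 0.124 CPM. These limits cover counting error only. Groups were compared with the edgeR quasi-likelihood test, and q is its p-value after Benjamini-Hochberg adjustment over the 14835 genes, with a threshold of 0.05. The SE was derived from that test, as the absolute log2 fold change over the square root of its F statistic. It is approximate, above all where control counts were near 0.

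At 3 hours 8 of the 9 genes were above control, and LIFR was not. The test called these 8 genes higher and 0 lower, whereas over all genes tested 23.2% were called higher and 22.2% lower. The median log2 fold change was 3.40 for the 9 genes and 0.02 for all genes. At 3 days, 5 genes were called higher (10.6% of all genes) and 2 lower (7.0%), with a median of 1.44. At 14 days, 0 genes were called in edgeR (0.0% of all genes).

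**Figure D1:**
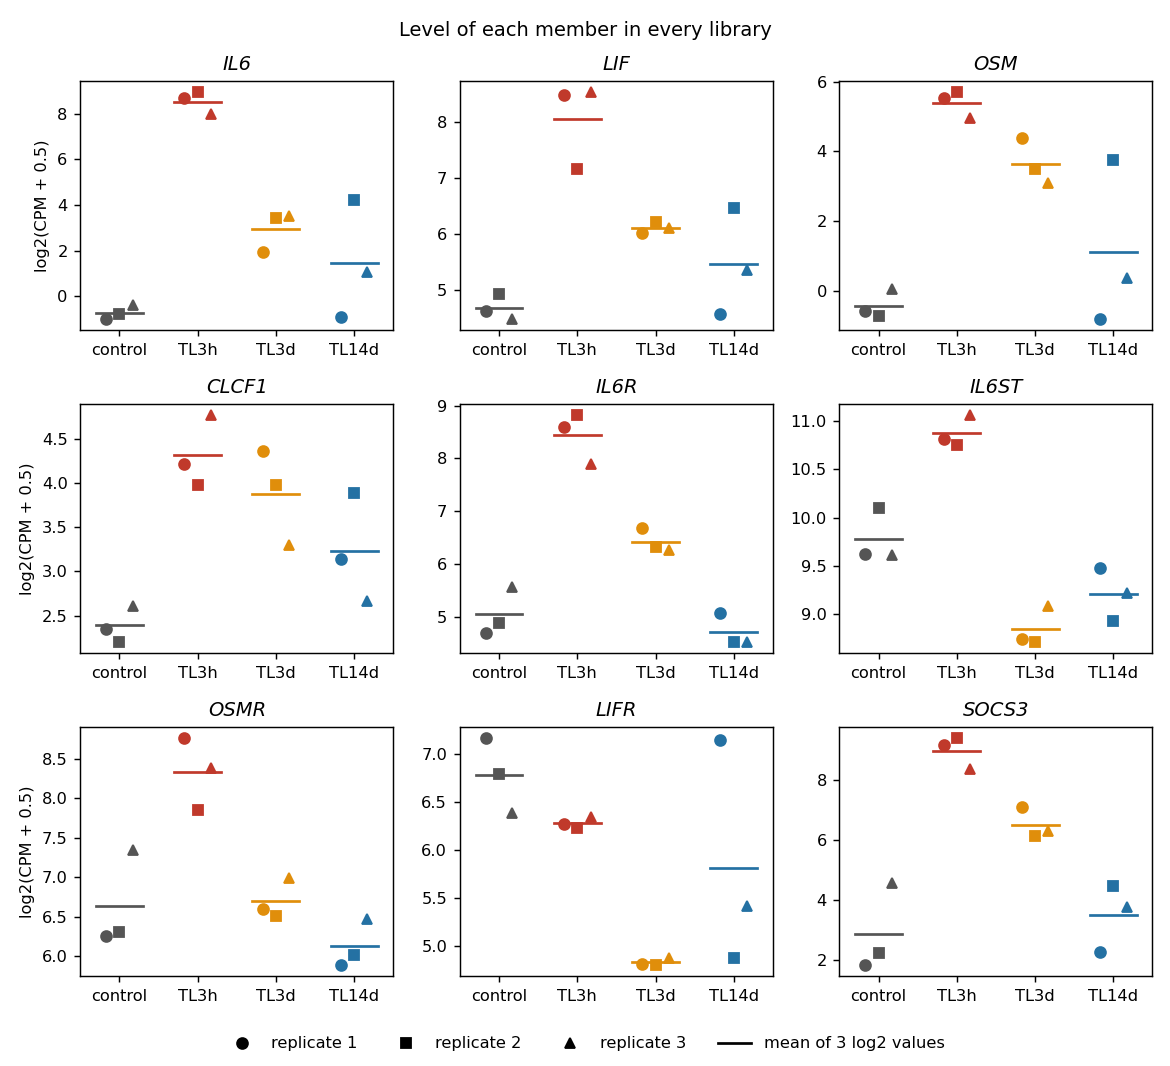
Each panel shows 1 gene, with log2(CPM + 0.5) on the vertical axis and the 4 groups on the horizontal axis. Symbols are the libraries (replicates 1 to 3) and bars the mean of 3 log2 values. The TL3h libraries of all genes but LIFR lie above all control libraries, and those of LIFR lie below them.

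IL6, the ligand that gives the family its name, was nearly absent from control conjunctiva, where its level was 0, 0.0750, and 0.276 CPM in the 3 libraries. It was 408, 487, and 252 CPM in the TL3h libraries, 3.32, 10.1, and 11.1 CPM in the TL3d libraries, and 0.0336, 18.2, and 1.60 CPM in the TL14d libraries. The TL3h and TL3d libraries did not overlap those of control or each other, and the TL14d libraries ran from the control range to above every TL3d library. The log2 fold change over control was 11.65 (SE 1.95, q = 0.000981) at 3 hours and 6.10 (SE 1.67, q = 0.0348) at 3 days. Since the control level lay near the limit of detection, these values depend on the small count that the fit adds, and with a prior count of 2 they were 11.09 and 5.55. On the log2(CPM + 0.5) scale of limma-trend they were 9.25 and 3.68 (q = 0.0336 at 3 days). Without control replicate 3 they were 13.16 and 7.65 (q = 0.0544 at 3 days), and without control replicate 1 they were 11.06 and 5.51 (q = 0.108 at 3 days). The fall from 3 hours to 3 days was tested directly and was −5.55 on the log2 scale (SE 1.45, q = 0.0133), a call that was lost without TL3d replicate 1 (q = 0.0504) and without TL3d replicate 2 (q just above 0.05).

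OSM encodes oncostatin M, a ligand made mainly by white blood cells. Its level was 0.166, 0.1, and 0.527 CPM in control, 45.7, 51.2, and 30.3 CPM at 3 hours, 20.3, 10.7, and 7.97 CPM at 3 days, and 0.0672, 13.0, and 0.781 CPM at 14 days. As for IL6, each TL3h and TL3d library was above each control library, and only 1 TL14d library reached the TL3d range. The log2 fold change over control was 7.31 (SE 1.56, q = 0.00377) at 3 hours and 5.61 (SE 1.46, q = 0.0300) at 3 days, and without control replicate 3 it was 8.21 and 6.55. With limma-trend it was 5.82 and 4.08. The difference between 3 days and 3 hours did not pass the test (−1.70, SE 1.18, q = 0.281), although the libraries did not overlap. Whether this fall differed from that of IL6 was not tested.

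LIF, leukemia inhibitory factor, was present in control conjunctiva. It stood at 24.4, 30.1, and 21.9 CPM in control, 359, 144, and 371 CPM at 3 hours, 64.4, 74.3, and 68.4 CPM at 3 days, and 23.4, 88.2, and 40.5 CPM at 14 days. It was called higher at 3 hours (log2 fold change 3.52, SE 0.50, q = 0.000406). At 3 days its 3 libraries agreed closely and lay above control without overlap, but the test missed the threshold (1.44, SE 0.46, q = 0.0567).

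CLCF1, a ligand of the CNTF receptor, changed less. It was 4.60, 4.10, and 5.62 CPM in control, 18.1, 15.2, and 26.7 CPM at 3 hours, 20, 15.2, and 9.33 CPM at 3 days, and 8.34, 14.3, and 5.83 CPM at 14 days. The log2 fold change over control was 2.06 (SE 0.39, q = 0.00186) at 3 hours and 1.64 (SE 0.38, q = 0.0216) at 3 days. It was the ligand whose TL3h and TL3d libraries overlapped, and its difference between those times was −0.43 (SE 0.37, q = 0.391). Its libraries at 14 days all lay above control, but the change of 0.99 (SE 0.38) was not called (q = 0.429).

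Among the receptor chains, IL6R rose most at 3 hours. The gene encodes the chain that binds IL6 itself. Its level was 25.5, 29.3, and 47.0 CPM in control, 388, 450, and 238 CPM at 3 hours, 102, 79.5, and 76.9 CPM at 3 days, and 33.5, 22.6, and 22.7 CPM at 14 days. The log2 fold change was 3.40 (SE 0.32, q = 5.7e-05) at 3 hours and 1.34 (SE 0.30, q = 0.0188) at 3 days. IL6R was also the gene of the 9 that was called lower at 14 days than at 3 days (−1.71, SE 0.30, q = 0.0289), against 1.59% of all genes called lower in that comparison. This call was lost in 7 of 21 alternative settings (q up to 0.116).

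IL6ST, the shared signalling chain, was above control at 3 hours and below it at 3 days. It was 788, 1100, and 783 CPM in control, 1810, 1730, and 2140 CPM at 3 hours, 425, 417, and 542 CPM at 3 days, and 712, 485, and 595 CPM at 14 days. All libraries at 3 hours were above control and all at 3 and 14 days were below it. The log2 fold change was 1.09 (SE 0.21, q = 0.00215) at 3 hours and −0.95 (SE 0.21, q = 0.0183) at 3 days, so the sign turned between the times. The direct difference between 3 days and 3 hours was −2.04 (SE 0.21, q = 0.000105). At 14 days the log2 fold change was −0.58 (SE 0.21, q = 0.412).

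OSMR, the chain for oncostatin M, was 76.1, 78.8, and 162 CPM in control, 433, 231, and 333 CPM at 3 hours, 96.1, 90.6, and 127 CPM at 3 days, and 58.8, 64.2, and 88.2 CPM at 14 days. It was called higher at 3 hours (1.65, SE 0.34, q = 0.00298), and at 3 days it lay within the control range (−0.01, SE 0.33, q = 0.978). LIFR, the chain for LIF, took another course. It was 143, 110, and 83.4 CPM in control, 76.6, 74.8, and 80.9 CPM at 3 hours, 27.7, 27.5, and 28.9 CPM at 3 days, and 141, 29.0, and 42.4 CPM at 14 days. The TL3h libraries lay just below control without overlap, which the test did not call (−0.53, SE 0.47, q = 0.392), and at 3 days LIFR was called lower (−2.00, SE 0.49, q = 0.0246). At 14 days 1 library was near the highest control value and the other two near the TL3d values.

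SOCS3, the feedback inhibitor, had 3.11, 4.20, and 23.1 CPM in control, 574, 664, and 325 CPM at 3 hours, 136, 69.6, and 78.0 CPM at 3 days, and 4.4, 21.7, and 13.3 CPM at 14 days. Control and TL14d libraries overlapped fully, and the TL3h and TL3d libraries stood apart from both. The log2 fold change over control was 5.68 (SE 0.92, q = 0.000832) at 3 hours, 3.22 (SE 0.82, q = 0.0280) at 3 days, and 0.38 (SE 0.76, q = 0.883) at 14 days. Without control replicate 3, the highest of the control libraries, it was 7.10 at 3 hours and 4.68 at 3 days. The fall from 3 hours to 3 days was −2.46 (SE 0.79, q = 0.0336), a call lost in 7 of 21 alternative settings (q up to 0.111).

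**Figure D2:**
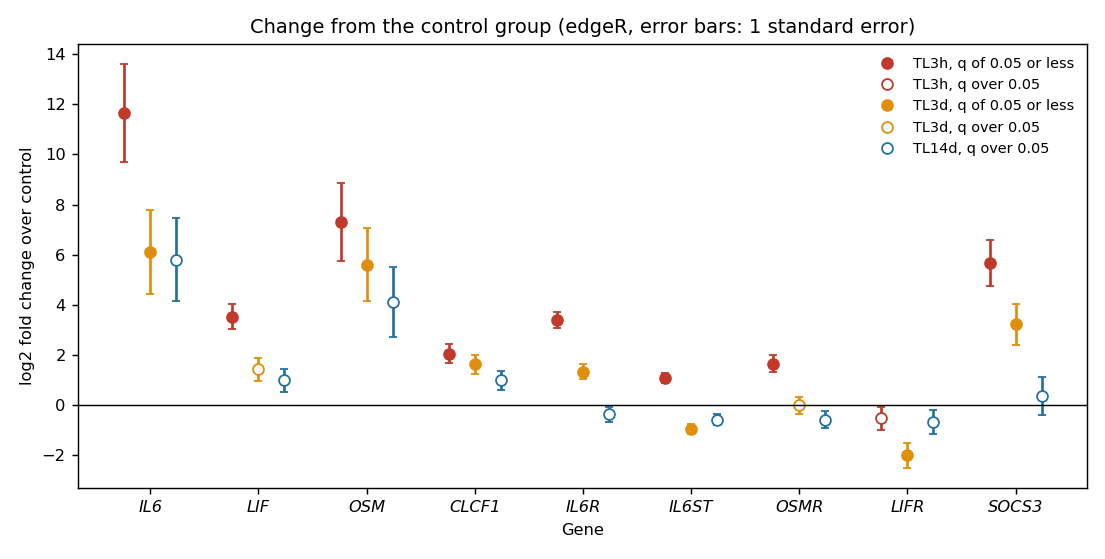
Log2 fold change over control for the 9 genes at each time (3 hours, 3 days, 14 days), with bars of 1 standard error derived from the F statistic of the edgeR test. Filled points have a q of 0.05 or less. IL6ST is filled above 0 at 3 hours and filled below 0 at 3 days, and all 14-day points are open.

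Groups that did not overlap were common among all genes, and the family has to be read against that. At 3 hours all 9 genes had no overlap with control (8 above and 1 below), against 57.3% of all genes. At 3 days it was 8 of 9, against 45.5%, and at 14 days 2 of 9 (CLCF1 above and IL6ST below), against 11.1%. In the tests between times, 7 of 9 were called lower at 3 days than at 3 hours (19% of all genes) and 7 of 9 lower at 14 days than at 3 hours (22.3%). The exceptions were CLCF1 and OSM in the first and LIFR and OSM in the second.

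The calls at 3 hours were kept for the same 8 genes in all 21 alternative settings, with a highest q of 0.0440 for IL6ST. LIFR was called lower at 3 hours when TL14d replicate 1 was left out (q = 0.0491). The calls at 3 days were less stable. Without control replicate 1, control replicate 2, TL3d replicate 1, or TL3d replicate 2, the count of called genes was 0 in each case, with a q between 0.0503 and 0.112 for the 7 genes. Whether calls were lost as widely among all genes in those refits was not computed. IL6 also missed the threshold at 3 days without control replicate 3 (q = 0.0544), TL3h replicate 1 (q = 0.0506), TL3h replicate 3 (q = 0.0503), or TL3d replicate 3 (q = 0.0557), and LIFR without TL3d replicate 3 (q = 0.0507). LIF at 3 days passed it in 6 of 21 settings, among them the DESeq2 test (q = 0.0138) and the omission of TL3h replicate 2 (q = 0.0430), TL14d replicate 1 (q = 0.0246), or TL14d replicate 2 (q = 0.0230). At 14 days, leaving out TL14d replicate 1 gave 3 called genes, with IL6 (q = 0.0244) and OSM (q = 0.0425) higher and LIFR (q = 0.0106) lower. The share of all genes called was not computed for this or the other alternative settings, so these counts have no background beside them. In the main edgeR fit, 1538 of all genes (10.4%) had an unadjusted p under 0.05 at 14 days, and of the 9 genes CLCF1, IL6, IL6ST, and OSM did. The DESeq2 test called IL6 (q = 0.00349) and OSM (q = 0.0257) at 14 days, and the edgeR likelihood-ratio test called IL6 (q = 0.0422).

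The TL14d libraries differed among themselves in the same way for several genes. Replicate 2 was the highest of the 3 for IL6, LIF, OSM, CLCF1, and SOCS3, and replicate 1 was the lowest for IL6, OSM, LIF, OSMR, and SOCS3 and the highest for IL6ST, IL6R, and LIFR. Replicate 1 had 0.0336 CPM of IL6 and 0.0672 CPM of OSM, both under the limit that a count of 0 allows.

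Levels of different genes were compared per transcript length, as the FPKM values of the authors (mean ± SD, n = 3). In control the order was led by IL6ST with 118 ± 27.2, followed by OSMR with 18.8 ± 7.90. LIFR (10.5 ± 3.07), LIF (6.41 ± 1.25), IL6R (6.23 ± 1.86), and SOCS3 (5.92 ± 6.38) came next, and the neighbours in this run overlapped. CLCF1 had 1.59 ± 0.198, and OSM (0.106 ± 0.0883) and IL6 (0.105 ± 0.126) were lowest and overlapped.

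At 3 hours IL6 (254 ± 74.6), SOCS3 (224 ± 71.4), and IL6ST (181 ± 24.9) were at the top with overlapping libraries. LIF (53.0 ± 23.9), IL6R (47.6 ± 13.5), and OSMR (43.2 ± 13.5) overlapped each other below them. OSM stood alone at 12.5 ± 2.94, and LIFR (5.21 ± 0.330) and CLCF1 (4.83 ± 1.57) overlapped at the bottom. At 3 days IL6ST (61.5 ± 7.71) and SOCS3 (57.4 ± 22.6) overlapped at the top and LIFR was lowest at 2.63 ± 0.00487. At 14 days IL6ST led again with 80.0 ± 14.9, above LIF (12.9 ± 8.66) and OSMR (12.8 ± 2.71), which overlapped. Without control replicate 3 the control means were 2.24 for SOCS3, 0.0556 for OSM, and 0.0356 for IL6, and without TL14d replicate 2 the LIF mean at 14 days was 8.04.

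**Figure D3:**
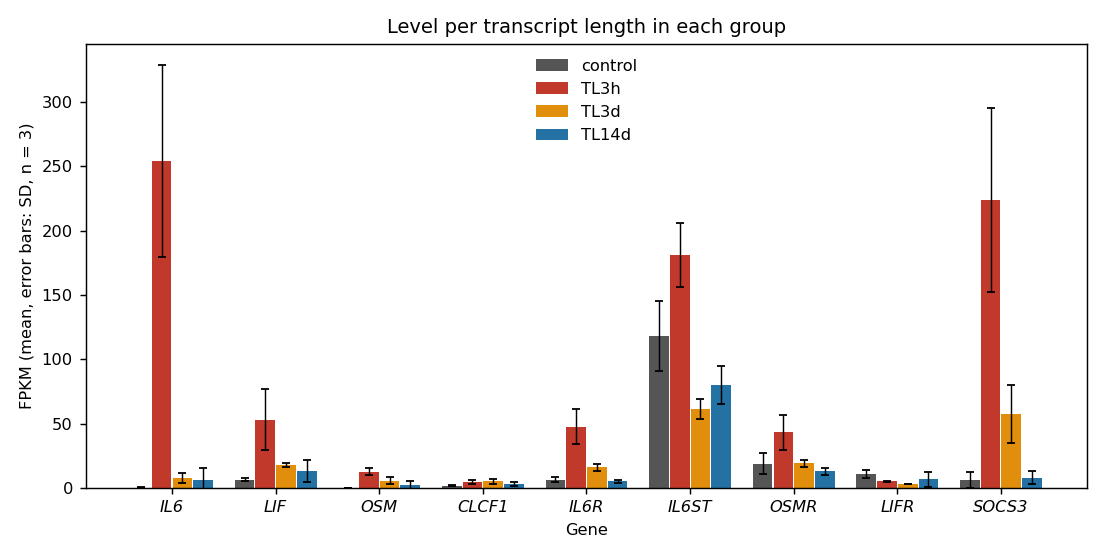
FPKM of the 9 genes in each group (bars: mean, error bars: SD, n = 3), on an axis that starts at 0. IL6 and SOCS3 are below 10 FPKM in control and above 200 FPKM at 3 hours, and IL6ST is the tallest bar in control, at 3 days, and at 14 days.

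The make-up of the ligand pool changed with time. FPKM values are not TMM-scaled, which lowers the sums at 3 hours: IL6 there was at 254 FPKM and at 341 TMM-adjusted CPM per kilobase. The 4 ligands added up to 8.21 ± 0.925 FPKM in control, 325 ± 59.1 at 3 hours, 35.5 ± 2.72 at 3 days, and 24.3 ± 22.5 at 14 days. IL6 made up 1.34 ± 1.70% of that sum in control, 77.2 ± 10.4% at 3 hours, 21.5 ± 11.1% at 3 days, and 15.1 ± 17.4% at 14 days. LIF held 77.6 ± 6.91% in control, 17.4 ± 9.88% at 3 hours, 49.2 ± 1.83% at 3 days, and 61.9 ± 14.8% at 14 days. The mean at 14 days was carried by replicate 2, since the ligand sums there were 8.83, 50.1, and 13.9 FPKM and the IL6 shares 0.357%, 34.3%, and 10.6%. Without it the means were 11.4 FPKM and 5.5%, and without control replicate 3 the IL6 share in control was 0.385%. LIF was thus the most abundant of the 4 ligands in control, at 3 days, and in each TL14d library, and IL6 was at 3 hours.

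The receptor chains were summed and compared in the same way, with the same limit. IL6ST was at 118 FPKM in control and 181 at 3 hours, and at 128 and 272 as TMM-adjusted CPM per kilobase. The 4 chains added up to 154 ± 22.8 FPKM in control, 277 ± 20.2 at 3 hours, 99.1 ± 9.28 at 3 days, and 104 ± 20.6 at 14 days. The ratio of IL6ST to IL6R was 22.1, 27, and 11.9 in control, 3.35, 2.75, and 6.44 at 3 hours, 2.99, 3.76, and 5.05 at 3 days, and 15.2, 15.4, and 18.8 at 14 days. The libraries at 3 hours and 3 days were all below those of control and of 14 days. The ratio of OSMR to LIFR was 1.03, 1.38, and 3.75 in control and 10.9, 5.97, and 7.94 at 3 hours, with no overlap, and was 6.72, 6.37, and 8.49 at 3 days. At 14 days it was 0.806, 4.28, and 4.02, which overlapped control. The ratio of IL6ST to OSMR was 7.62, 10.3, and 3.56 in control, 3.08, 5.5, and 4.73 at 3 hours, 3.25, 3.39, and 3.15 at 3 days, and 8.91, 5.56, and 4.97 at 14 days, so that the libraries at 3 hours and 14 days overlapped control and those at 3 days lay below it. These ratios are descriptions, without a test.

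The 9 genes had 26 transcripts in the transcript table, of which 24 were tested among 26082. At 3 hours 17 were called higher and 0 lower (14.1% of all transcripts higher), and at 3 days 2 higher (3.24%) and 2 lower (1.88%). All 4 IL6R transcripts, both LIF transcripts, and both CLCF1 transcripts were called higher at 3 hours. Of the 17 calls at 3 hours 4 were lost in at least 1 of 21 alternative settings, among them XM_017347019.1 of CLCF1 (lost in 3) and XM_008262226.2 of IL6ST (lost in 3). The 4 calls at 3 days were each lost in 10 to 13 of 21 settings, and all 4 with the replicate block and without control replicate 1 or 2, any TL3h replicate, TL3d replicate 1 or 2, or TL14d replicate 3. The log2 fold changes of the IL6R transcripts lay between 3.17 and 3.63. The OSM count was carried by XM_008274704.2, which held 99.3 ± 0.567% of it at 3 hours (n = 3). For LIFR, XM_002713987.3 held 4.98 ± 1.06% of the gene's transcript count in control and 9.70 ± 0.741% at 3 hours, and its level was not called (0.37, SE 0.53, q = 0.664). At 3 days the main transcript XM_017344692.1 was called lower (−2.04, SE 0.50, q = 0.0467), a call lost in 12 of 21 settings (q up to 0.153), and XM_002713987.3 had −1.69 (SE 0.55, q = 0.0948).

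The 4 IL6ST transcripts held changing shares of the gene's count. On OryCun2.0 the main transcript XM_008262226.2 starts 8 bases inside the gene's 5′ end, and XM_017344726.1 starts at base 71945983 of chromosome 11, which is 15380 bases inside it, and ends at the same 3′ end. XM_017344727.1 is short (1309 bases) and ends 25063 bases before the others. The share of XM_017344726.1 in the IL6ST transcript count was 26.3%, 7.44%, and 27.1% in control, 6.40%, 3.12%, and 3.37% at 3 hours, 36.3%, 38.5%, and 30.6% at 3 days, and 31.4%, 42.4%, and 23.8% at 14 days. Its share at 3 hours was below every other library, and at 3 days above every control library.

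In CPM, XM_017344726.1 had 215, 86.3, and 221 in control, 119, 56.0, and 73.8 at 3 hours, and 157, 164, and 172 at 3 days, so that its levels overlapped those of control at both times. XM_008262226.2 was called higher at 3 hours (log2 fold change 1.20, SE 0.30, q = 0.0145) and lower at 3 days (−1.33, SE 0.30, q = 0.0393). The first call was lost with scaling by total count alone and without control replicate 1 or control replicate 3 (q up to 0.0890), and the second in 10 of 21 settings (q up to 0.145). XM_017344725.1 was called higher at 3 hours (3.27, SE 0.49, q = 0.00104), with 7.47, 19.3, and 17.8 CPM in control and 131, 160, and 140 CPM at 3 hours, and so was XM_017344727.1 (1.88, SE 0.43, q = 0.00897). XM_017344726.1 was not called at 3 hours (−1.07, SE 0.37, q = 0.0536) or at 3 days (−0.09, SE 0.37, q = 0.921). Between 14 days and 3 hours it was called higher (1.25, SE 0.37, q = 0.0309), while the other three IL6ST transcripts were called lower, and it was the one higher call among the 24 transcripts in that comparison, with 14 lower (13.9% of all transcripts higher and 13.5% lower). Its call was lost without TL3h replicate 2, TL3h replicate 3, TL14d replicate 1, or TL14d replicate 2 (q up to 0.106). How reads were shared among overlapping transcripts is not stated, so these transcript values are estimates.

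**Figure D4:**
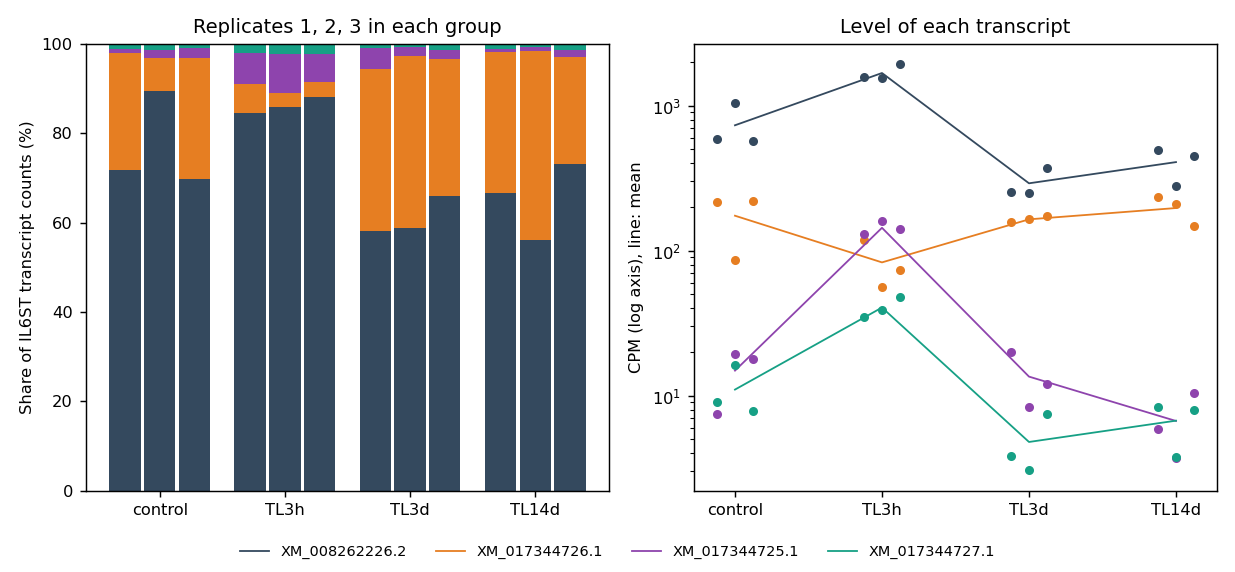
IL6ST by transcript. Left, the share of the gene's transcript count (%) in each library, stacked for replicates 1 to 3 of each group. Right, CPM on a log axis, with points for libraries and lines through the means. XM_017344726.1 holds 3.12% to 6.40% at 3 hours and 30.6% to 38.5% at 3 days.

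Beyond the 9 genes, other parts of the pathway were read from lists, beside 23.2% of all genes called higher and 22.2% lower at 3 hours, and 10.6% higher and 7.0% lower at 3 days. Among the other ligands of the IL6 and IL12 families, 3 of 5 in the table were tested and 2 were called higher at 3 hours (23.2% of all genes), with none called at 3 days. IL23A, a subunit of IL-23, had at most 3 counts in any control library and 26.5 ± 18.5 CPM at 3 hours (SD, n = 3), which is at least 352-fold higher than the highest floor of 3 counts in a control library (q = 0.00494). IL12A, a subunit of IL-12, had a log2 fold change of 3.53 (SE 0.76, q = 0.00379), from 0.107 to 1.28 CPM. Without control replicate 2 these log2 fold changes were 10.69 for IL23A, in place of 9.5, and 4.61 for IL12A, which was 2.88 without TL3h replicate 2. With limma-trend they were 5.24 for IL23A and 1.48 for IL12A, and for IL23A the value was 8.17 with a prior count of 2 and 10.91 with the replicate block. CNTF was tested and not called at 3 hours (0.59, q = 0.0625).

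Among 6 other receptors of the family, 1 was called higher and 1 lower at 3 hours and none at 3 days, which is no more than the shares of all genes (23.2% higher and 22.2% lower at 3 hours). IL31RA, the receptor for the itch cytokine IL-31 and the neighbour of IL6ST in the newer rabbit assembly mOryCun1.1, was higher (3.65, SE 0.42, q = 0.000133, with 2.73 in limma-trend). IL12RB2, a chain of the IL-12 receptor, was lower (−2.37, SE 0.33, q = 0.000378), from 61.2 ± 18.4 to 11.8 ± 1.55 CPM. Of the 2 enzymes that shed IL6R from cells, ADAM17 was called higher at 3 hours (0.64, SE 0.19, q = 0.0192) and at 3 days (0.91, SE 0.19, q = 0.0169) and ADAM10 was not. With scaling by total count alone, 0 of the pair were higher and 1, ADAM10, lower at 3 hours. That scaling moved genes as a whole downward at this time (median −0.47), and no share of all genes was computed under it. The call of ADAM17 at 3 hours was lost with that scaling (q = 0.605) and without control replicate 2 (q = 0.0501), control replicate 3 (q = 0.0765), TL3h replicate 1 (q = 0.0553), or TL3h replicate 3 (q = 0.0862).

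Of 9 JAK kinases and STAT factors, 3 were called higher and 1 lower at 3 hours, near the shares of all genes (23.2% and 22.2%). STAT4 (3.36, SE 0.56, q = 0.000946), JAK2 (1.72, SE 0.15, q = 4e-05), and STAT3 (1.5, SE 0.26, q = 0.00109) were higher, and TYK2 (−0.99, SE 0.21, q = 0.00343) was lower. STAT3 went from 466 ± 191 to 1320 ± 80.4 CPM and was back at 485 ± 59.6 CPM at 3 days. With scaling by total count alone, which moved the median of all genes at 3 hours from 0.02 to −0.47, the split was 3 higher and 4 lower. The shares of all genes called higher and lower with that scaling were not computed. JAK2 was the member of this list called at 3 days (0.67, SE 0.14, q = 0.0174).

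Of 14 other negative regulators, 6 were called higher at 3 hours and 0 lower (23.2% and 22.2% of all genes). CISH (3.18, SE 0.34, q = 0.000102), SOCS1 (2.84, SE 0.53, q = 0.00176, with 2.19 in limma-trend), SOCS6 (1.91, SE 0.27, q = 0.000424), and SOCS4 (1.37, SE 0.16, q = 0.000142) are of the SOCS family. At 3 days none of these 4 was called (q between 0.0610 and 0.667), and the calls of the list were the phosphatase PTPN1, higher (0.78, SE 0.22, q = 0.0363), and the STAT inhibitor PIAS2, lower (−0.84, SE 0.19, q = 0.0211). With scaling by total count alone, the list had 6 higher and 3 lower calls at 3 hours, for which no share of all genes was computed.

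Of 24 tested genes named as STAT3 targets or acute phase genes, 20 were called higher at 3 hours (23.2% of all genes) and 0 lower, with a median log2 fold change of 2.43. At 3 days 8 were called higher (10.6% of all genes) with a median of 1.31. The largest changes at 3 hours were in FOSL1, an AP-1 transcription factor (8.59, SE 1.34, q = 0.000674), S100A8 (5.97, SE 1.70, q = 0.0159), S100A9 (5.55, SE 1.41, q = 0.00925), and the protease inhibitor SERPINA3 (4.75, SE 1.38, q = 0.0225). S100A8 and S100A9 are abundant neutrophil proteins as well. Without control replicate 3 the changes were 11.31 for FOSL1, 9.28 for S100A8, 8.13 for S100A9, and 6.08 for SERPINA3, and without TL3h replicate 2 they were 5.38 for S100A8 and 4.93 for S100A9. With limma-trend they were 7.22 for FOSL1, 7.15 for S100A8, 6.26 for S100A9, and 2.48 for SERPINA3, and S100A8 was 6.64 with the replicate block. The call of SERPINA3 was lost without control replicate 1 (q = 0.0752), control replicate 2 (q = 0.0791), or TL3h replicate 1 (3.37, q = 0.0785). The plasma genes FGA, FGB, FGG, CRP, LBP, and HAMP had too few counts to be tested. At 14 days none of the genes of these lists was called.

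For each gene, the genes of most similar course were found by the root mean square difference of centred log2(CPM + 0.5) over the 12 libraries. The nearest to IL6 were PTGS2 (1.11), FOSL1 (1.18), and IL20 (1.18), beside a spread of 3.61 for IL6 about its own mean. The nearest to OSM were CLEC4E (0.47), PLEK (0.57), and CD274 (0.57), and those to LIF were TFRC, EPS8, and TSLP (0.46 each). KLF10 (0.28), IPPK (0.29), and WDR1 (0.31) were nearest to CLCF1.

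Among the receptor chains, PIM1 (0.27), SLC16A6 (0.30), and MXD1 (0.35) were nearest to IL6R. JMJD1C (0.19) and SRSF7 (0.20) followed LOC100357740 (0.13), named as an ankyrin repeat domain protein, for IL6ST. MOSPD1 (0.25), ATP8B2 (0.26), and LOC103350247 (0.28) were nearest to OSMR, and TFAP4 (0.26), RIMS4 (0.26), and PGER5 (0.34) to LIFR. RGS2 (0.40), CCRL2 (0.44), and PGLYRP1 (0.48) were nearest to SOCS3, and PGLYRP1 stands in the neutrophil marker list used here.

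Markers of some cell types changed at the same times as these genes. In bulk tissue, fewer cells of a type and less RNA per cell cannot be told apart. The summed CPM of 8 neutrophil markers was 3.65, 8.08, and 68.5 in control, 1740, 2180, and 820 at 3 hours, 674, 518, and 143 at 3 days, and 3.29, 87.0, and 85.5 at 14 days. All 7 tested markers of this list were called higher at 3 hours (23.2% of all genes) and MMP25, PGLYRP1, and S100A12 at 3 days (10.6%). At 3 hours IL6, OSM, IL6R, and SOCS3 were highest in replicate 2 and lowest in replicate 3, and so were the neutrophil, monocyte and macrophage, endothelial, fibroblast, and T cell sums. LIF, CLCF1, IL6ST, OSMR, and LIFR stood in other orders. Control replicate 3 had the highest control level of IL6, OSM, CLCF1, IL6R, OSMR, and SOCS3 and also the highest control sum of neutrophil, monocyte and macrophage, endothelial, fibroblast, and goblet cell markers. TL14d replicate 1 had the lowest neutrophil and the lowest monocyte and macrophage sum of its group. The part of these cells in the changes was not tested.

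Markers of other cells varied too. The monocyte and macrophage sum (8 markers) ran from 108 to 843 in control, 780 to 1190 at 3 hours, 1450 to 2310 at 3 days, and 154 to 494 at 14 days, with 2 markers (CD14 and CD68) called higher at 3 hours, near the 23.2% of all genes, and 5 (AIF1, CD14, CD68, CSF1R, and MSR1) at 3 days, beside 10.6% of all genes. The endothelial sum (8 markers) ran from 70.4 to 308 in control, 646 to 1270 at 3 hours, 317 to 587 at 3 days, and 96.1 to 312 at 14 days, with 2 markers (PECAM1 and CDH5) called higher at 3 hours, near the 23.2% of all genes, and none called at 3 days. PECAM1 made the largest part of the sum at 3 hours, with a mean of 55.8 CPM in control and 716 at 3 hours. The means of TEK (8.09 and 6.36) and KDR (32.8 and 18.6) were lower at 3 hours, and those of the other markers were higher. The fibroblast sum (10 markers) ran from 10500 to 61500 in control, 82700 to 102000 at 3 hours, 1130 to 46300 at 3 days, and 8220 to 41300 at 14 days, and none of its genes was called at any time. The T cell sum (9 markers) stayed between 11.9 and 47.4, with CD3D called lower at 3 hours (−1.38, SE 0.51, q = 0.0478), beside 22.2% of all genes. The sum of 6 conjunctival epithelial markers lay between 5980 and 18100 in every library, although at 3 hours EPCAM was called higher (1.0, SE 0.16, q = 0.000884) and PAX6 lower (−1.70, SE 0.41, q = 0.00693), beside 23.2% and 22.2% of all genes, and at 3 days KRT5 higher (1.86, SE 0.48, q = 0.0291), beside 10.6%. KRT13, KRT19, KRT14, and MUC16 were not analysed here. The sum of 3 goblet cell markers ran from 44.6 to 682. The sum of 6 skeletal muscle markers was 325 in control replicate 2 and 362 in TL3d replicate 3 and at most 6.80 in the other libraries. No marker of these lists that was in the table was at 0 in all libraries, and their part in the results was not tested.

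**Figure D5:**
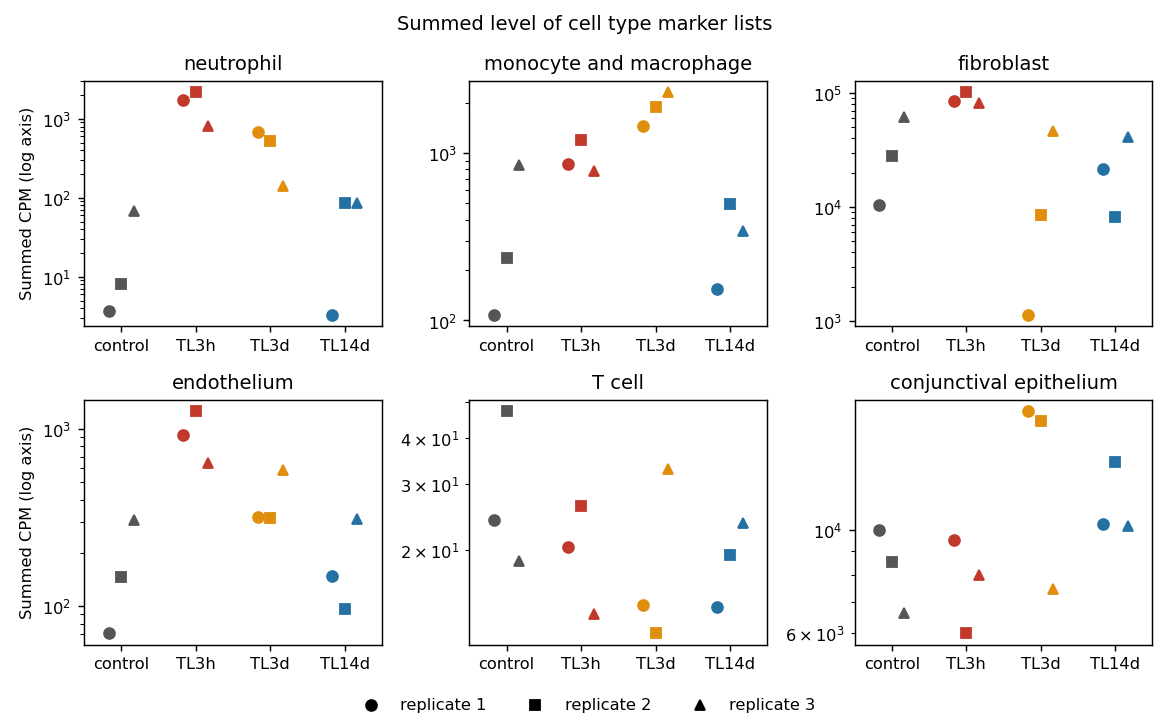
Summed CPM (log axis) of the markers of 6 cell types in each library, by group. The neutrophil sum is 820 to 2180 at 3 hours and 3.65 to 68.5 in control, and the epithelial sum lies between 5980 and 18100 in all libraries.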

How the data were processed

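The authors prepared stranded mRNA libraries, mapped 150 bp paired-end reads to OryCun2.0 with STAR 2.6.0c (per the submitters' processing notes), and made values per gene and transcript in GeneData Profiler Genome. The authors deposited estimated counts, not divided by library size (23.4% fractional in the gene table), and FPKM values, divided by transcript length and depth. The plan was written for counts, and its test was kept for the estimated counts after rounding. filterByExpr (minimum count 10, total 15) kept 14835 of 20566 genes and 26082 of 38710 transcripts. TMM normalization and the quasi-likelihood test of edgeR 4.0.16 (R 4.3.3) were run on all 12 libraries in 1 fit without covariates, with a prior count of 0.125. Alternatives used DESeq2 1.42.0 and limma 3.58.1. FPKM values served for levels between genes, without a test. Within groups the lowest squared difference over counting variance was 80.7, so no library was a copy. On data simulated for TL3h against control (14463 genes, 200 of them changed), 85 of 100 genes changed by 3 log2 units and 14 of 100 changed by 1 were recovered, with 0 false calls. In the real comparison 45.4% of genes were called, so these rates of recovery need not apply to it. Groups come from the sample labels. The members and lists were chosen with earlier results of these data known. All members are named, and of each list the called genes of largest change at 3 hours, up to 4. CNTF, ADAM10, PTPN1, PIAS2, PGLYRP1, the single cell type markers, and the genes with too few counts were added after their values were seen. No sequences were printed, since no file used here holds them.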

Additional observations from a re-analysis of the deposited data

Results flagged for a closer look

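The effects at different times after surgery, each against the same control libraries, were compared by a direct test between the time points, and the differences that passed are given here as log2 fold changes (edgeR quasi-likelihood test). From 3 hours to 3 days, IL6 fell by 5.55, SOCS3 by 2.46 (−2.46), LIF by 2.08 (−2.08), IL6R by 2.06 (−2.06), IL6ST by 2.04 (−2.04), OSMR by 1.67 (−1.67), and LIFR by 1.47 (−1.47). From 3 hours to 14 days, the differences were −5.85 for IL6, −5.31 for SOCS3, −3.77 for IL6R, −2.52 for LIF, −2.24 for OSMR, −1.66 for IL6ST, and −1.08 for CLCF1. From 3 days to 14 days, the difference was −1.71 for IL6R. The call for CLCF1 was lost in 11 of 21 alternative settings, with a q of up to 0.218 and that for LIFR in 8 of 21, with a q of up to 0.0991 outside the scaling by library size alone. The call for IL6R from 3 days to 14 days was lost in 7 of 21, with a q of up to 0.116. That for SOCS3 from 3 hours to 3 days was lost in 7 of 21, with a q of up to 0.111. That for IL6 from 3 hours to 3 days was lost in 2 of 21, with a q of up to 0.0504. Without TL14d replicate 2, the differences from 3 hours to 14 days were −8.86 for IL6 and −3.19 for LIF, and for IL6 they were −7.07 with limma-trend and −7.04 with the replicate block.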

How the results depend on the processing

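The share of all genes called was computed for the main fit only, so the counts in other settings have no background beside them. At 3 hours, 8 to 9 genes were called when each library was left out in turn. At 3 days the count ran from 0 to 8 (0 without control replicate 1 or 2 or TL3d replicate 1 or 2), at 14 days from 0 to 3 (3 without TL14d replicate 1), from 3 hours to 3 days from 4 to 7 (4 without TL3d replicate 1 or 2), and from 3 to 14 days from 0 to 2 (2 without control replicate 3 or TL14d replicate 2). Transcripts called at 3 days ran from 0 to 10, with 10 without TL14d replicate 1 and 0 without any of 8 other libraries, and at 14 days from 0 to 2 (2 without TL14d replicate 1). At 14 days DESeq2 called 2 genes and 1 transcript and the likelihood-ratio test 1 gene. From 3 to 14 days DESeq2, the likelihood-ratio test, and limma-trend each called 2 genes, and a fit of the 6 libraries 0. For transcripts at 3 days the count was 1 without the filter, 13 with DESeq2, 10 with the likelihood-ratio test, and 8 with limma-trend. Of 18 pairs with the same replicate number, 8 had a correlation over 0.1 (lowest −0.171, highest 0.502). With 3 libraries in each group this cannot decide whether the numbers pair the samples, which were treated as unpaired. With the replicate block, 8 genes were called at 3 hours, 7 at 3 days, and 0 at 14 days, 6 from 3 hours to 3 days, and transcripts at 3 days fell to 0. With TMM-adjusted CPM per kilobase in place of FPKM, levels at 3 hours were 341 for IL6, 77.8 for LIF, 18.0 for OSM, 7.01 for CLCF1, 71.3 for IL6R, 272 for IL6ST, 64.4 for OSMR, 7.87 for LIFR, and 315 for SOCS3, and 2.85 for LIFR at 3 days. Signs turned only for values that were not called. For OSMR at 3 days the change, −0.20 to 0.42 over the left-out libraries, was 0.06 with limma-trend, 0.04 with the replicate block, 0.42 without control replicate 3, 0.04 without TL3d replicate 1, and 0.08 without TL3d replicate 2. For SOCS3 at 14 days it was −0.19 to 1.84, with −0.05 without control replicate 1 and −0.19 without TL14d replicate 2. With library size alone, which moved the median of all genes at 3 hours to −0.47, it was 0.05 for CLCF1 from 3 hours to 3 days and 0.36 for LIFR from 3 hours to 14 days. Over the left-out libraries the latter ran from −1.11 to 0.25 and was 0.25 without TL14d replicate 2 and 0.14 without TL14d replicate 3. For IL6 from 3 to 14 days it ran, over the left-out libraries, from −3.31 to 0.28 and was 0.28 without TL14d replicate 1 and 0.16 without TL14d replicate 3. The control libraries held 0, 3, and 11 counts of IL6 and 7, 4, and 21 of OSM, which limits the precision of their fold changes. With only the 6 libraries compared, IL6 at 14 days did not pass the filter on low counts and was not tested. Causes were not tested.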
